A study of Homo sapiens with 4 samples.

Results

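Some binding summits of the oestrogen-related receptor ERRα lay so close to neighbouring genes that a single summit was shared between gene ends, and those shared summits are described here. A summit was taken when it fell within 1 kb of an end of 2 or more protein-coding RefSeq genes. This held for 281 of the 10026 peaks on chromosomes 1 to 22 and X that were matched between replicates, out of 10331 matched peaks in all. Of the 281 shared summits, 262 had 2 genes in reach and 19 had 3, which gave 571 genes. For comparison, 1248 matched summits had 1 gene end in reach and 8497 had none. The choice used positions only, so fold enrichment and reproducibility were not part of it.

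Chromatin immunoprecipitation with sequencing (ChIP-seq) was carried out in the human cell line MDA-MB-231, derived from a triple-negative breast cancer and grown without any treatment or genetic change named in the labels. There were 2 ERRα ChIP libraries, each from its own cell culture, and 2 input libraries of sheared chromatin with no antibody. All 4 come from 1 cell line, both ChIP libraries used the same antibody, and both were compared with the same inputs. Only peak lists were analysed, so neither expression nor read counts per peak were available to set beside them.

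ERRα is an orphan nuclear receptor that binds DNA as a zinc-finger protein at an extended receptor core, and it is best known for activating genes of mitochondrial respiration together with PGC-1 coactivators. Many human genes sit head to head, with their starts close together on opposite strands, so that they share 1 promoter region and are often transcribed in both directions from it. Genes for mitochondrial proteins, DNA repair and histones are well-known users of such promoters. A summit there does not show which of the genes a factor acts on.

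Sequences from near the shared summits are given first because they hold the letters that the results on motifs turn on. Some of the printed stretches do not reach the summit itself. They are from RefSeq promoter windows of GRCh38.p14, each reaching from 250 bases before a gene start to 50 after it, and are written on the strand on which the motif was found. The first set shows the nuclear receptor core AAGGTCA, in capitals, at the 6 shared summits with the highest fold among those with the core in the window at the summit. The centres of these cores lay 8 to 44 bp from the summit.

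ACYP1 and ZC2HC1C (chr14:75069491-75069545, minus strand): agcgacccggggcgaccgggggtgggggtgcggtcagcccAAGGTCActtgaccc
HIGD2A and NOP16 (chr5:176388748-176388776, minus strand): gcctcccggtgAAGGTCAtgaaaggggcg
MICOS10 and MICOS10-NBL1 (chr1:19596792-19596878, plus strand): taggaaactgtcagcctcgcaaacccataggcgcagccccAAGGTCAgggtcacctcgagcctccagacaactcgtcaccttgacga
SDHD and TIMM8B (chr11:112086873-112086901, minus strand): cctgagggctcAAGGTCAtccaccaaccc
KRABD2 and RPL26 (chr17:8376774-8376860, minus strand): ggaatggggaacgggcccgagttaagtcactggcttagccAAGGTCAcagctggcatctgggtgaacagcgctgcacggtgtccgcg
ECM1 and TARS2 (chr1:150507882-150507968, plus strand): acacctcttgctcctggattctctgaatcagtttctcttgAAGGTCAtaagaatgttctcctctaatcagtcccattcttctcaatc

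The second set shows shared summits that failed the reproducibility mark and whose window held the ETS word CCGGAAGT or the YY1 word AAGATGGCG, again in capitals. The centres of these words lay from 3 bp (SLIRP and ALKBH1) to 199 bp (RNF121 and XNDC1N) from the summit. ETS factors and YY1 are general promoter-binding factors. The first and second sets were chosen in unlike ways and are not a contrast. CCGGAAGT was in 9 of 36 searched windows past the mark and 10 of 52 that failed it, and AAGATGGCG in 3 and 8.

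LARP4B and GTPBP4 (chr10:988342-988424, plus strand): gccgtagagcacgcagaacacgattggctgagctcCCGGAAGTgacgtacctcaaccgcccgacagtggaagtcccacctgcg
ZNF408 and ARHGAP1 (chr11:46700976-46701030, minus strand): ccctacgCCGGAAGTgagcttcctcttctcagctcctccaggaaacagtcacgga
TIMM10B and ARFIP2 (chr11:6481415-6481500, minus strand): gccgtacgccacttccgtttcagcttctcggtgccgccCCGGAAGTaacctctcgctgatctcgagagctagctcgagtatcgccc
SLIRP and ALKBH1 (chr14:77708099-77708127, plus strand): ctttagtctgAAGATGGCGgcctcagcag
RNF121 and XNDC1N (chr11:71929049-71929077, plus strand): gcgagccgtgAAGATGGCGgcagtggtgg
THBS3 and MTX1 (chr1:155209239-155209267, plus strand): gagggtgggcAAGATGGCGgcgcccatgg

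Shared summits were dense along the genome, while their median fold and the share that passed the reproducibility mark were close to those of other summits. Positions within 1 kb of 2 or more gene ends made up 6.01 Mb, or 0.199% of the stretch covered, and held 2.80% of the summits. That is 46.7 summits per Mb, against 18.8 per Mb within 1 kb of a single gene's ends and 2.88 per Mb elsewhere. Starts and 3′ ends count alike in these zones, and the share of starts in each was not measured. Counting only summits past the reproducibility mark, the densities were 22.6, 9.50 and 1.45 per Mb.

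The reproducibility mark was an irreproducible discovery rate (IDR) of 0.05, which is a deposited score of at least 540. It was passed by 136 of the 281 shared summits (48.4%, exact 95% interval 42.4 to 54.4), beside 50.4% of all matched summits. The share was 50.6% at the end of 1 gene and 50.5% away from gene ends, so the 3 kinds of place differed by less than the interval of the shared summits. At an IDR of 0.01 the shared summits passed in 113 cases (40.2%), beside 38.7% of all matched summits. These intervals cover counting over positions in 1 list and not further cultures.

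Fold enrichment is the authors' ratio of ChIP to local input signal at the summit. Over the shared summits its median was 8.33 in replicate 1 and 8.20 in replicate 2, and over all matched summits 8.65 and 8.41. The mean of the replicates had a median of 8.12 at shared summits, 8.65 at the end of 1 gene and 8.44 over all. The quartiles of the shared summits were 5.95 and 14.4, and the range was 3.94 to 545. When all matched summits were ranked by fold and cut into 10 equal parts, shared summits made up 3.69% of the weakest part and 3.79% of the strongest, with the lowest share, 1.40%, in part 5. A mean fold of at least 20, a mark chosen after the values were seen, was reached by 50 of the 281 (17.8%). The share was 13.8% at the end of 1 gene and 12.2% over all matched summits. Peaks at shared summits were also wider, with a median of 801 bp against 714.5 bp at the end of 1 gene and 642 bp over all matched peaks.

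The replicates gave like folds at these places. Spearman's rho between replicate 1 and replicate 2 was 0.873 over the 281 summits, a description over positions that share both libraries and both inputs. The median ratio of the higher to the lower replicate was 1.18, and 3 of the 281 differed by more than 2-fold. Replicate 1 was the higher at 151 of them. Every matched summit has a peak in both replicates, so these values describe only peaks found in both. The median fold was 15.5 at the 136 past the IDR mark and 6.15 at the 145 that failed it. The mark and the fold come from the same peak lists, so the higher fold past the mark is not a separate result.

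**Figure D1:**
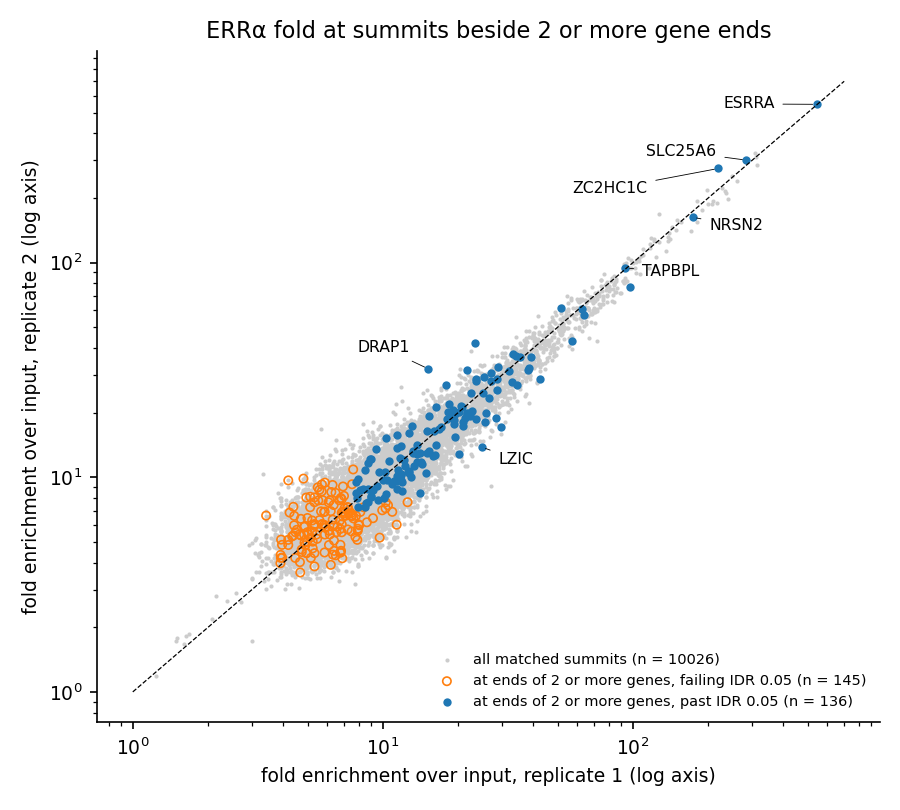
Fold enrichment over input in replicate 1 (x axis) and replicate 2 (y axis), both on log axes, for all 10026 matched summits (grey) and for the 281 at ends of 2 or more genes, filled blue where they passed an IDR of 0.05 (n = 136) and open orange where they failed it (n = 145). The dashed line marks equal folds; the shared summits follow it from 3.94 to 545, and those that failed sit at the low end with a median of 6.15.

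The highest shared summit lay at ESRRA, the gene of ERRα itself. It was 675 bp from the start of ESRRA and 79 bp from an end of CATSPERZ, a gene of a sperm calcium channel complex, and its fold was 544 in replicate 1 and 547 in replicate 2 (545 ± 1.91, SD, n = 2). The next lay at SLC25A6, which codes for an ADP/ATP carrier of the inner mitochondrial membrane, beside the uncharacterised LOC124900597 (285 and 300). The third, shared by ACYP1, an acylphosphatase, and ZC2HC1C, lay 9 bp from the start of ACYP1, outside the gap between the starts, and had folds of 220 and 275 (247 ± 38.9, SD, n = 2). NRSN2, a neuronal vesicle protein, and LOC101929937 shared a summit of 173 and 163. These 4 stood above every other shared summit in both replicates.

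The strongest shared summits after these included several with a gene for a mitochondrial protein. The summit of CD27, a costimulatory receptor of lymphocytes, and TAPBPL, a peptide editor of antigen presentation, reached 93.4 and 94.4. HIGD2A, an assembly factor of cytochrome oxidase, shared its summit with NOP16, a ribosome assembly factor (97.1 and 76.9). COX4I1, a subunit of cytochrome oxidase, and EMC8, of the membrane protein insertion complex of the endoplasmic reticulum, had 63.9 and 57.1. The replicates of HIGD2A and NOP16 spread further (87.0 ± 14.3, SD, n = 2) than those of CD27 and TAPBPL (93.9 ± 0.738). CEND1 and the mitochondrial glutamate carrier SLC25A22 followed with 51.4 and 61.6, and USP19, a deubiquitinase, and LAMB2, a laminin chain, with 57.1 and 43.1. All of the 10 highest shared summits, not all of which are named here, passed the IDR mark with the top score of 1000. The score and the fold come from the same peak lists, so this is not a separate result. Much lower folds also reached that score, such as 11.4 and 9.64 at H1-4 and H2BC5.

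The gene ends in reach were mostly gene starts. The strand of every gene was known for 220 of the 281 shared summits, and 166 of these (75.5%, interval 69.2 to 81.0) lay beside 2 or more starts. In 152 the starts were divergent, that is on opposite strands and facing away from each other. In 14 they lay on 1 strand, as where MICOS10, an organiser of mitochondrial cristae, shares its start with the read-through gene MICOS10-NBL1. A start beside the 3′ end of another gene was found in 46, and 3′ ends alone in 8. The other 61 had a gene whose strand was not in the table used. That table lacked 4161 of the 19974 protein-coding genes, among them all of chromosome 8, which held 13 of the shared summits. Counts that need a strand or a promoter window of these genes leave them out.

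The median of the mean fold was 7.72 at divergent starts, 10.1 where a start met a 3′ end, 6.94 at starts on 1 strand, 8.72 at 3′ ends alone and 8.95 where a strand was not known. The IDR mark was passed by 69 of 152 at divergent starts (45.4%, 37.3 to 53.7) and by 24 of 46 where a start met an end (52.2%, 36.9 to 67.1). These intervals overlap, and the difference was not tested. Several of the strongest were of the second kind: the TAPBPL start beside the end of CD27, the CEND1 start beside that of SLC25A22, the USP19 start beside that of LAMB2, and the start of ACACB, an acetyl-CoA carboxylase, beside the end of the DNA glycosylase gene UNG (28.6 and 28.7). At HIGD2A, a short gene, both ends lay within 1 kb of the summit.

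**Figure D2:**
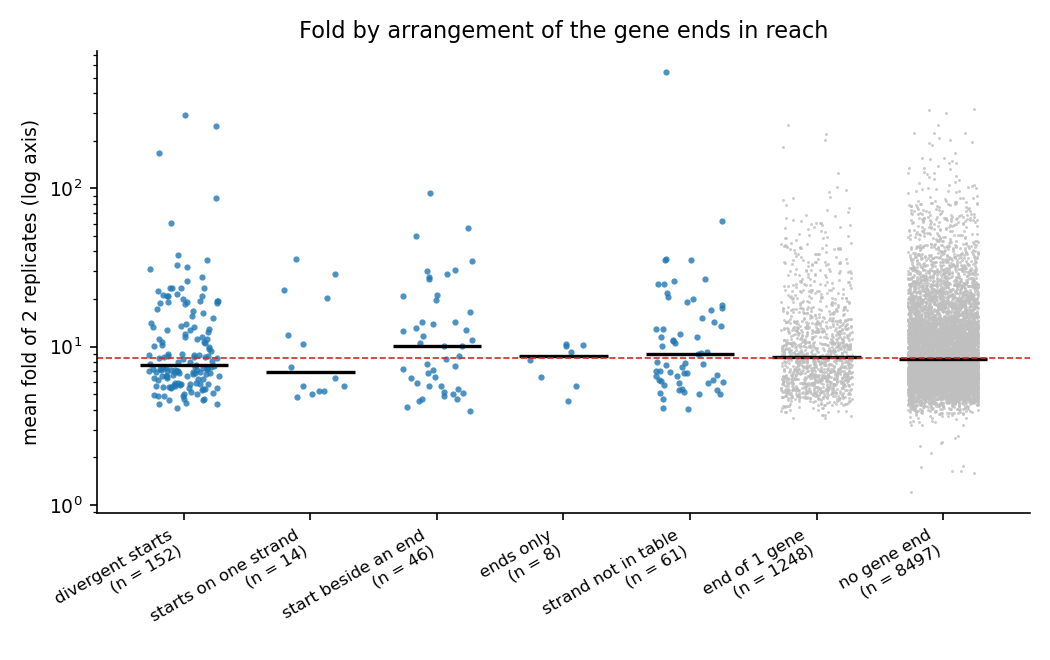
Mean fold of the 2 replicates (y axis, log) for shared summits by the arrangement of the gene ends in reach (blue), and for summits at the end of 1 gene and at no gene end (grey), with each point 1 summit, black bars the medians and the red dashed line the median of all matched summits, 8.44. The medians lie between 6.94 and 10.1 in every class, and each class spans a wide range of folds.

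Seen from the genes, close divergent pairs carried a summit more often than close convergent ones. Of 1097 divergent pairs with starts within 1 kb of each other, 158 (14.4%, 12.4 to 16.6) had a matched summit within 1 kb of both starts, and 70 (6.38%) had one past the IDR mark. Of 638 convergent pairs, with 3′ ends within 1 kb, 9 (1.41%, 0.647 to 2.66) had one, and 5 (0.784%) past the mark. Tandem pairs, where the end of one gene meets the start of the next, had one in 43 of 467 cases (9.21%, 6.74 to 12.2). Single starts, with no other gene end within 2 kb, had a summit within 1 kb in 781 of 11954 cases (6.53%, 6.10 to 6.99). The intervals of the divergent pairs and of the convergent pairs do not overlap each other or that of the single starts; they treat pairs as independent, and no test was run.

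The share was also counted by the spacing of the divergent starts. A matched summit was present at 12.4% of 283 pairs whose genes overlapped at their starts (8.77 to 16.8), 14.4% of 465 with a gap of at most 200 bp (11.3 to 17.9), and 18.1% of 288 with a wider gap of at most 500 bp (13.8 to 22.99). At gaps above 500 bp it was present at 4 of 61 pairs (6.56%, 1.82 to 15.9), where less sequence is within 1 kb of both starts.

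**Figure D3:**
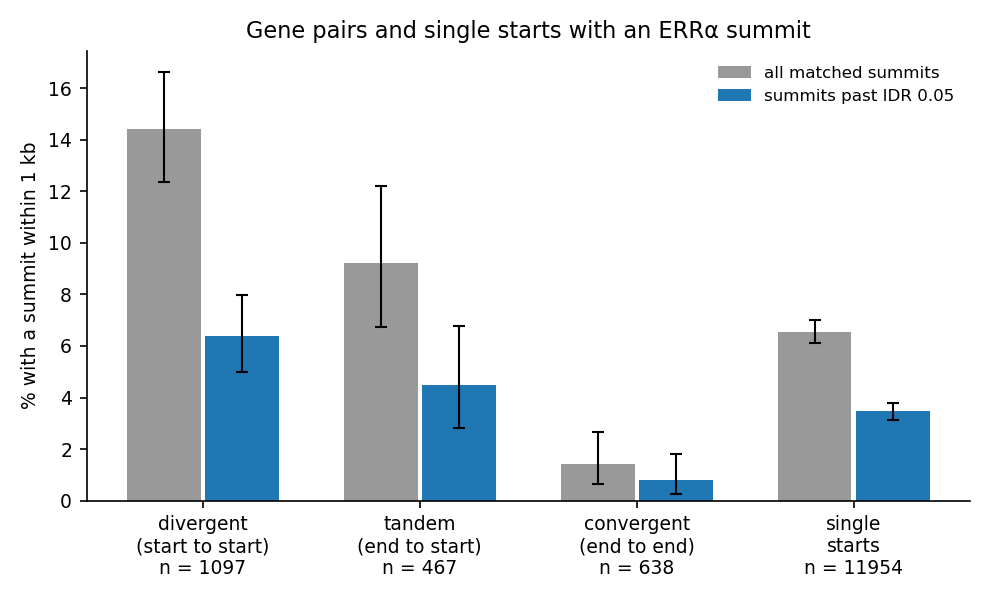
Share of close gene pairs and of single starts, in percent (y axis), with a summit within 1 kb of both ends or of the start, for all matched summits (grey) and for those past an IDR of 0.05 (blue), with exact 95% intervals as error bars and the number of pairs or starts under each class. Divergent pairs stand at 14.4% and convergent pairs at 1.41% for all matched summits.

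Few of the summits at divergent starts lay in the space between them. The median gap between the starts was 142.5 bp, and the median distance of the summit from their midpoint was 282 bp. The summit lay between the starts in 21 of 152, in the overlap of the genes in 15, and outside that span in 116. Per Mb of sequence in reach, with summits counted for every pair, the density was 112 between the starts, 112 in the overlap and 78.8 inside 1 gene only. These rest on 20, 14 and 125 summits. Past the IDR mark the densities were 39.1, 64.2 and 34.7, from 7, 8 and 55 summits, so those between the starts and inside 1 gene were close. No intervals were computed for these densities. The stretch inside 1 gene only was the longest, at 1.59 Mb, and held the most summits at the lowest density of the 3. Of the 21 summits between the starts none reached a fold of 20, and the highest was 19.1, at ACADM, the medium-chain acyl-CoA dehydrogenase of fatty acid oxidation, and SLC44A5, a choline transporter-like gene. Position counts rest on the outer ends of each RefSeq locus and not on the start used in these cells.

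**Figure D4:**
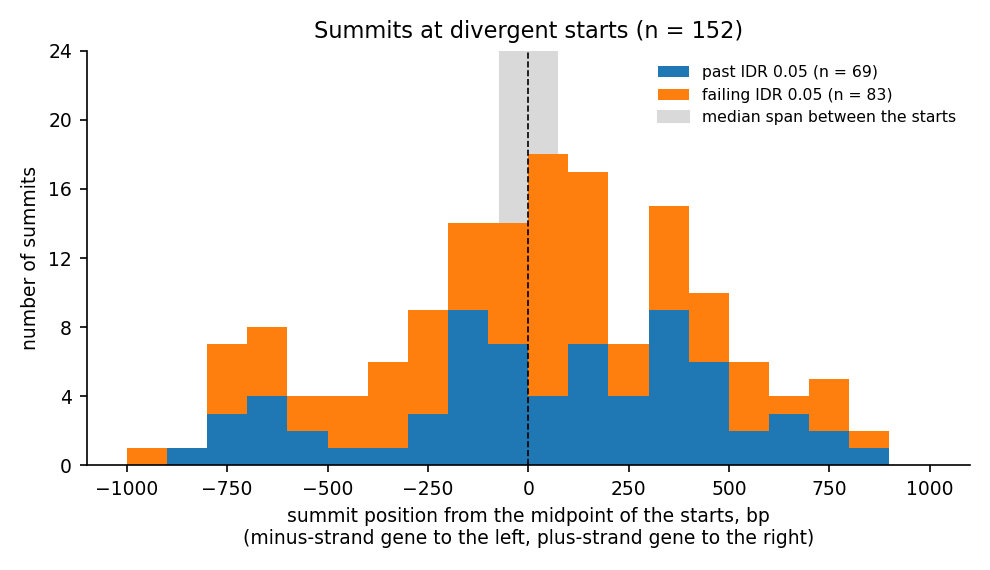
Number of summits (y axis) by position relative to the midpoint of the divergent starts in bp (x axis, bins of 100 bp) for the 152 shared summits at divergent starts, stacked by whether they passed (blue, n = 69) or failed (orange, n = 83) an IDR of 0.05; the grey band is the median gap of 142.5 bp. Most summits fall outside the grey band, at a median of 282 bp from the midpoint.

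Genes for mitochondrial proteins were common at shared summits. Of 257 genes in lists for complex I, complexes II to V, the mitochondrial ribosome, and mitochondrial import and chaperones, 50 (19.5%) lay at a shared summit, beside 571 of 19974 protein-coding genes (2.86%). At summits past the IDR mark the counts were 27 (10.5%) and 280 (1.40%). One more list, for the citric acid cycle and fatty acid oxidation, brought the total to 55 of 297 genes at 52 shared summits, 28 of which passed the mark. Of the 55 genes, 46 had their start in reach, 1 only its 3′ end, and 8 had no strand in the table. The lists were chosen with results of these data known. Mitochondrial genes were also common at summits with 1 gene in reach, where 97 of the 297 lay, beside 1221 of 19974 protein-coding genes. Of the 152 list genes at any gene-end summit, 36.2% lay at a shared one, beside 32.2% for all protein-coding genes.

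Complex I, the entry point of electrons from NADH, had 14 of 49 list genes (28.6%) at shared summits, 7 of them (14.3%) past the mark. The shares of all protein-coding genes were 2.86% and 1.40%. NDUFB5, a complex I subunit, and MRPL47, of the large mitochondrial ribosomal subunit, shared a summit of 21.8 and 31.6. NDUFAF4, an assembly factor, had 23.6 and 28.6 beside KLHL32, and the assembly factor NDUFAF5 had 20.6 and 21.5 beside ESF1. NDUFS6 and MRPL36, again a complex I subunit with a mitochondrial ribosomal protein, had 19.5 and 19.6. The replicates of NDUFB5 and MRPL47 (26.7 ± 6.94, SD, n = 2) spread more than those of NDUFS6 and MRPL36 (19.5 ± 0.114).

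Complexes II to V had 13 of 76 list genes (17.1%) at shared summits, 6 (7.89%) past the mark, beside 2.86% and 1.40% of all protein-coding genes. SLC25A6, a carrier placed on this list though not a subunit of these complexes, and COX4I1 led them with the folds given above. SDHD, the membrane anchor of succinate dehydrogenase, shared its summit with TIMM8B, a small chaperone of the intermembrane space (38.6 and 32.2), and the summit lay 22 bp from the start of SDHD; the core under it is printed above. UQCR10, of complex III, and ZMAT5, a splicing protein, had 15.1 and 16.4. The mitochondrial ribosome had 11 of 82 genes (13.4%), 5 (6.10%) past the mark, beside the same 2.86% and 1.40%. After the 2 pairs named above came MRPL21 beside the helicase gene IGHMBP2 (21.3 and 18.9) and MRPL2 beside KLC4 (16.1 and 12.7).

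Import and chaperone genes had 12 of 50 (24%) at shared summits and 9 (18%) past the mark, beside 2.86% and 1.40% of all protein-coding genes. CHCHD4, which oxidises proteins entering the intermembrane space, had 39.2 and 36.3 beside TMEM43. The mitochondrial chaperonin genes HSPD1 and HSPE1, a textbook head-to-head pair, shared a summit of 22.5 and 24.7 with the read-through gene HSPE1-MOB4. POLG, the mitochondrial DNA polymerase, placed on this list with the other upkeep genes, had 25.9 and 19.9, and its partner POLGARF is read from the same locus. All 5 genes of the citric acid cycle and fatty acid oxidation at shared summits, of 40 (12.5%), passed the mark. They include ACADM (20.9 and 17.3), SUCLG1, of succinyl-CoA ligase, beside DNAH6 (11.5 and 10.9), and ETFB, an electron carrier of fatty acid oxidation, beside CLDND2 (11.4 and 10.2).

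At divergent pairs of a gene on these 5 lists with a gene on none of them, the start of the listed gene was more often the nearer. Of 32 shared summits with such a pair, it was nearer in 23 (71.9%, 53.3 to 86.3) and the partner's start in 9. Past the IDR mark it was nearer in 12 of 15 (interval 51.9 to 95.7%). This comparison was added after the data were examined and carries no test. Some partners, such as SARS2, also code for mitochondrial proteins, and MRPS34 is counted at 2 summits. Divergent pairs with a mitochondrial gene had a matched summit in 34 of 80 cases (42.5%, 31.5 to 54.1), against 124 of 1017 without one (12.2%, 10.2 to 14.4). Single mitochondrial starts had one in 72 of 142 (50.7%, 42.2 to 59.2), an interval that overlaps that of the mitochondrial pairs, and other single starts in 709 of 11812 (5.58 to 6.45%).

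Cytosolic ribosomal protein genes and histone genes lay at shared summits too, but mostly at weak ones. Cytosolic ribosomal genes were there in 10 of 79 cases (12.7%), beside 2.86% of all protein-coding genes. Only 2 (2.53%) passed the mark, beside 1.40%. In both of those the ribosomal gene was reached by its 3′ end, while the start in reach was that of another gene: KRABD2 beside RPL26 (38.2 and 31.7), and SNAPC5, of the snRNA activating complex, beside RPL4 (32.7 and 27.8). RPLP2 beside PIDD1 (10.3 and 7.65) and RPL36A beside BTK (6.47 and 8.46), which were reached at their starts, failed the mark with scores of 536 and 349.

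Histone genes, which lie in clusters of short genes, had 14 of 68 (20.6%) at 7 shared summits, beside 2.86% of all protein-coding genes. Past the mark there were 5 genes (7.35%) at 2 summits, beside 1.40%. These were H2BC21 with H2AC20 and H2AC21 (10.3 and 15.3), and H1-4 with H2BC5 (11.4 and 9.64). H3C1 with H4C1 (6.79 and 8.01) and H2BC4 with H2AC6 (6.69 and 7.82) failed it. No histone summit exceeded a mean fold of 12.8, and histone genes include near-identical copies, so their folds are uncertain.

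The other lists had up to 7 genes at shared summits. DNA repair and replication had 7 of 88 (7.95%), 4 past the mark (4.55%), beside the 2.86% and 1.40% of all protein-coding genes, with UNG at 28.6 and 28.7 through its 3′ end, PARP3 beside RRP9 at 19.3 and 18.6, and the mismatch repair gene PMS2 beside AIMP2 at 9.13 and 8.74. Glycolysis had 1 of 23 (4.35%), the triose phosphate isomerase gene TPI1, whose start lay 167 bp from a summit of 28.5 and 25.4. The proteasome list had 1 of 41 (2.44%), PSMC5 beside FTSJ3 (7.51 and 6.58), which failed the mark, and the list of 23 olfactory receptor genes had none.

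Of 23 neighbour pairs listed from general knowledge, 19 had ends within 1 kb of each other in the gene table. Among those 19, 6 had a shared summit, counted at either end of each gene. Over all genes, 158 of 1097 close divergent pairs (14.4%) had one, an unlike count that takes only starts with a known strand. ESRRA with CATSPERZ, SDHD with TIMM8B, NDUFB5 with MRPL47, and MCM4 with PRKDC each had a gene without a strand. None of these pairs is among the 1097. The list, which holds ESRRA itself, was written with earlier results of these data known, so the count is only a description. Of these 6, ESRRA with CATSPERZ, SDHD with TIMM8B, NDUFB5 with MRPL47, and HSPD1 with HSPE1 passed the mark. MCM4 and PRKDC, of replication licensing and DNA end joining, had 5.46 and 5.17. MRPS12, of the mitochondrial ribosome, and SARS2, the mitochondrial seryl-tRNA synthetase, had 5.33 and 3.85. These last 2 had the lowest score in the list, 154. A well-known head-to-head pair, HADHA with HADHB of mitochondrial fatty acid oxidation, had no matched summit within 1 kb of both genes.

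Summits with 3 genes in reach did not stand above those with 2. Their median fold was 7.62, and 9 of 19 passed the mark (47.4%, 24.4 to 71.1). The highest was that of NEURL2, SPATA25 and CTSA, the lysosomal cathepsin A (30.8 ± 2.63, SD, n = 2). It was followed by HSPE1 with HSPD1, by TMEM223, TMEM179B and the mRNA export factor NXF1 (19.5 and 15.4), by H2BC21 with its neighbours, and by BAD, a promoter of apoptosis, with GPR137 and PLCB3 (14.9 and 10.5).

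The replicates differed most, among shared summits past the mark, at C11orf68 and DRAP1, a repressor of transcription, with 15.2 in replicate 1 and 32.0 in replicate 2. SAFB2 and SAFB, scaffold attachment factors, had 23.5 and 42.2. In the other direction, LZIC and NMNAT1, a nuclear enzyme of NAD synthesis, had 24.8 and 13.8, STX18 with LOC124900165 had 29.7 and 17.1, and THAP6 with RCHY1 had 14.1 and 8.46. Only the first of these 5 exceeded a 2-fold difference.

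The summits on either side of the 1 kb limit are given as a description. Those just inside it were those of CD27 and TAPBPL, with the second gene end 996 bp away, FAM162A and MIX23 at 989 bp (9.59 and 7.83), and ATP5F1E and PRELID3B at 971 bp (8.10 and 8.73). Just outside were KLHL10 and NT5C3B at 1002 bp (7.73 and 9.91), H2BC3 and H3C3 at 1012 bp (6.42 and 13.5), and TSR1 and SGSM2 at 1030 bp (4.47 and 5.70). The 3 just inside passed the IDR mark, with scores of 1000, 645 and 661. The 3 just outside failed it, with scores of 539, 278 and 154, the first of them just below the mark. So few summits show no change at the limit: 50.4% of all matched summits passed the mark. The share at shared summits was 47.2% with a window of 500 bp and 47.7% with 2 kb.

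In each replicate's own peak list, peaks at shared positions recurred in the other replicate at a rate within a few points of that of other peaks. Replicate 1 had 395 such summits, and 282 of their peaks (71.4%, 66.7 to 75.8) shared 1 bp or more with a peak of replicate 2, beside 72.1% at the end of 1 gene and 71.8% elsewhere. Replicate 2 had 360, and 292 (81.1%, 76.7 to 85.0) overlapped a replicate 1 peak, beside 79.5% and 79.9%. In replicate 1 the median fold was 7.99 at those that recurred and 4.95 at those that did not.

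The promoter sequences were searched for the ERR half-site TCAAGGTCA and for looser or shorter words within it. The planned count took the promoter window of every gene whose start lay at a shared summit and searched both strands for TCAAGGTCA. It was found at 1 of 418 starts (0.239%, 0.00606 to 1.33), beside 0.234% of all 15812 protein-coding genes with a window. With 1 match the interval is wide. The looser word TNAAGGTCA was found at 8 starts (1.91%, 0.830 to 3.74, against 0.664%). The core AAGGTCA, which lies within both longer words, was found at 26 (6.22%, 4.10 to 8.98, against 3.21%). At the starts of summits with 1 gene in reach, the 3 words were found at 1.14%, 2.05% and 6.83%.

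A second count was added after the data were examined. It used only the summits that lay inside a promoter window, took for each the 1 window centred nearest, and searched 10 motifs on both strands; 88 of the 281 shared summits have such a window. The core was in the window of 11 of 36 shared summits past the IDR mark (30.6%, 16.3 to 48.1) and of 2 of 52 that failed it (3.85%, 0.469 to 13.2). It was in 3.22% of all windows of protein-coding genes. At summits with 1 gene in reach the core was in 39 of 100 past the mark (39.0%, 29.4 to 49.3) and in 17 of 123 that failed (13.8%, 8.26 to 21.2). Because the motif and the unit were chosen in view of the data, these shares are a description and carry no test. The half-site TCAAGGTCA was in 1 of the 88 windows (1.14%, 0.0288 to 6.17) and in 13 of 223 at 1 gene (5.83%, 3.14 to 9.76).

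The 13 shared summits with the core had a median fold of 27.4, and the core's centre lay a median of 26 bp from the summit, within 50 bp in 9. They include the 6 printed above, whose folds ran from 247 at ACYP1 and ZC2HC1C to 30.6 at ECM1, an extracellular matrix protein, and TARS2, the mitochondrial threonyl-tRNA synthetase (34.3 and 27.0). Others were RILP and PRPF8 (25.4 and 29.5), GORASP1 and TTC21A (20.9 and 18.1), and PARP3 and RRP9. The 2 that failed the mark were NAA50 with ATP6V1A (7.91 and 5.11), where the core lay 179 bp away, and MRRF with RBM18 (5.12 and 7.25), where it lay 72 bp away.

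The ETS and YY1 words did not divide the shared summits in that way. CCGGAAGT was in 9 of 36 windows past the mark (interval 12.1 to 42.2%) and 10 of 52 that failed (19.2%, 9.63 to 32.5), beside 5.35% of all protein-coding windows. AAGATGGCG was in 3 of 36 (8.33%, 1.75 to 22.5) and 8 of 52 (15.4%, 6.88 to 28.1), beside 2.42%. The ETS word lay a median of 96 bp from the summit, and the YY1 word 42 bp. At the printed examples the folds were 6.93 and 9.06 for LARP4B and GTPBP4, 9.94 and 7.02 for SLIRP, a mitochondrial RNA-binding protein, and ALKBH1, and 4.19 and 9.67 for THBS3 and MTX1.

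The other motifs searched were common or rare on both sides of the mark. The GC box GGGCGG was in 66.7% of windows past it and 71.2% of those that failed, beside 56.3% of all, and CCAAT in 10 of 36 and 13 of 52, beside 34.6% of all. The NRF1 word, the CRE word TGACGTCA and the AP-1 word TGANTCA were each found in 3 or 4 of the 88 windows, with all 4 CRE matches at summits that failed. TNAAGGTCA was in 3 of 36 and 1 of 52.

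**Figure D5:**
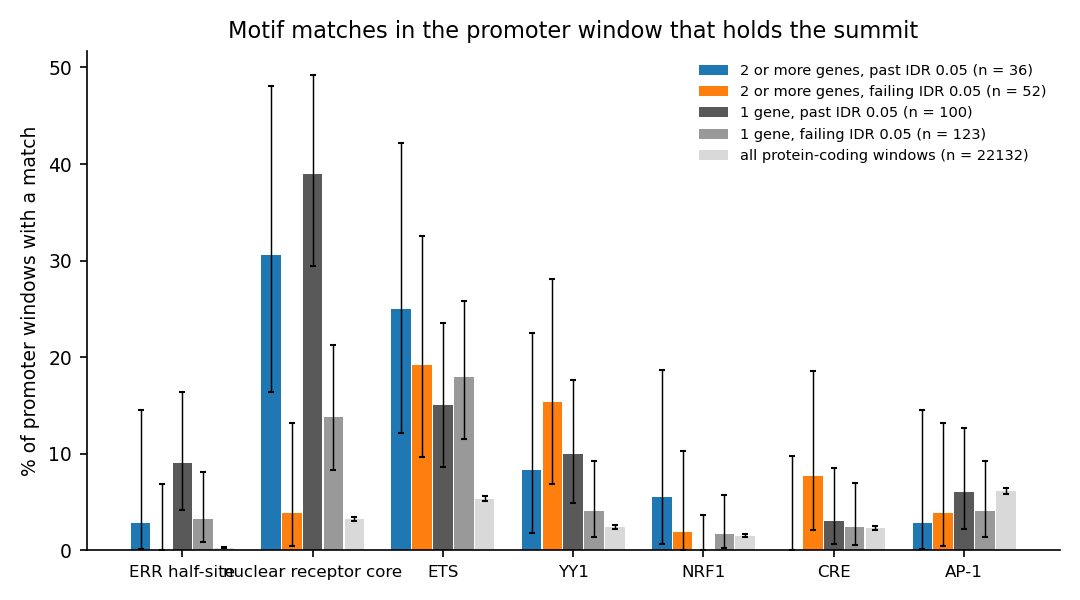
Share of promoter windows with a motif match on either strand, in percent (y axis), for shared summits past (blue, n = 36) and failing (orange, n = 52) an IDR of 0.05, summits with 1 gene in reach past (dark grey, n = 100) and failing (mid grey, n = 123) it, and all windows of protein-coding genes (light grey), with exact 95% intervals; the ERR half-site is TCAAGGTCA and the core AAGGTCA. The core stands at 30.6% and 3.85% at shared summits past and failing the mark.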

How the data were processed

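Per the submitters' processing notes, the build was hg38 and the tools included MACS2 2.2.6, Bowtie2 2.3.5 and Trim Galore 0.6.5, with deepTools, SAMtools and Picard; no settings are stated there. Per the labels, 81 bp paired reads were made; the labels' read numbers lack an exponent sign and were read as 29 (ERRα) and 10 (input), in units of 1e6 reads. The deposited fold is the authors' ratio of ChIP to local input at the summit. The deposited −log10 p and −log10 q come from the authors' peak calls for single replicates against both inputs. The deposited IDR score of the matched list starts at 154, so the authors had not filtered it at 540 (IDR 0.05). All folds are the authors' own and were used to describe and rank peaks; depth per peak is unknown.

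The matched summit lies about midway between those of the replicates. It was placed by either outer end of 19974 protein-coding genes in a RefSeq table of GRCh38.p14. Strands came from the RefSeq promoter table, which had 15813 of them; a gene without one was left out of counts that need it. Promoter sequences came from the same table. Python 3.11.15, pandas 2.3.3, NumPy 2.4.6, SciPy 1.17.1 and Matplotlib 3.10.9 were used, and the scripts were tested on simulated data. Intervals are exact Clopper-Pearson 95% intervals. No p-value was computed, since there are 2 ChIP libraries and the places were chosen by position.

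The members, gene lists and pairs were chosen with earlier results of these data known. Genes named are those of the 10 highest folds, the 4 highest of each list, the 5 summits with most genes, the 3 on each side of the limit, the listed pairs and the 5 with the largest replicate difference; others, mostly in the account of motifs and arrangements, were chosen after their values were seen. The values of some items named by this rule are not reported here. The motif panel (10 motifs kept; scrambled words tried in a first look were dropped), the use of the window at the summit, the fold mark of 20, the densities by position and the comparison of mitochondrial with partner starts were added after the data were examined. The matched list gives no q, so the stricter limit of a −log10 q of at least 5 was applied to both replicates' peaks.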

Additional observations from a re-analysis of the deposited data

How the results depend on the processing

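Of 84 alternatives, 51 kept the value within its margin (1.5 times for a count, the exact interval for a share, the SD between replicate medians for the fold) and 33 did not; none involves a test. The 281 shared summits became 144 with a window of 500 bp, 470 with 2 kb, 136 at IDR 0.05 and 113 at IDR 0.01. Their median fold of 8.12 became 7.64, 8.39, 15.5 and 19.1 under the same 4 settings, 9.97 with a −log10 q of at least 5 in both replicates, and 6.48 to 6.95 in a single replicate's own list. It was 7.96 with replicate 1's summit and 8.02 without LOC genes, both added after seeing the data. The share past the mark of 48.4% became 58.1% with the q limit and 40.2% at IDR 0.01. The share beside 2 or more starts of 75.5% became 81.6% at 500 bp and 64.0% at 2 kb. The 50 genes of 4 mitochondrial lists became 27 and 24 at IDR 0.05 and 0.01. Divergent pairs with a summit (14.4%) became 6.38% and 4.92% at those marks, 11.7% with the q limit, 8.39% and 17.6% at 500 bp and 2 kb, and 18.7% to 20.2% in a single replicate's list. Convergent pairs (1.41%) became 0.470% at IDR 0.01, 0.313% at 500 bp and 4.86% at 2 kb. Replicate 1 summits found again (71.4%) became 63.5% with 50% overlap and 84.0% with the q limit. The half-site TCAAGGTCA at gene starts (0.239%) became 6.22% for AAGGTCA and 1.91% for TNAAGGTCA, which are shorter or looser words. Stricter marks leave fewer summits by construction; for the other settings the cause was not tested. No paired analysis was possible because the results come from no test and the inputs have no values of their own.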

Other observations

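Shared summits were spread over all chromosomes from 1 to 22 and X. Chromosome 11 had the most, 31 of its 591 matched summits (5.25%), of which 17 passed an IDR of 0.05, and chromosome 16 had 21 of 444 (4.73%), of which 13 did. Chromosome 13 had 2 of 225 (0.889%), neither past the mark. Of the 6 on chromosome 22 every one passed it. Over all these chromosomes 2.80% of matched summits were shared, and 48.4% of the shared ones passed the mark. The chromosomes named were picked for their high or low values. Counts as low as 2 or 6 are too few to read as a trait of a chromosome. No test was run over chromosomes.

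Other genes of mitochondrial or related function that were on none of the lists also lay at shared summits with a mean fold above 20. COQ9, of coenzyme Q synthesis, and CIAPIN1, of cytosolic iron-sulfur cluster assembly, had 32.0 and 31.4. GTPBP3, a mitochondrial tRNA-modifying GTPase, had 33.1 and 37.5 beside ANO8. PRDX5, a peroxiredoxin found in mitochondria, and TRMT112, a methyltransferase partner, had 17.9 and 27.0. MTFP1, of mitochondrial fission, had 22.5 and 20.1 beside SEC14L2. These were chosen after their values were seen. In 17 shared summits a LOC gene was in reach, and in 11 a read-through gene, so that the count of genes there rests on uncertain or overlapping gene models.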
